A study of Mus musculus with 24 samples.

Results

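Expression of 30 genes of cholesterol synthesis, uptake and efflux was followed in the livers of male mice of 3 inbred strains, WSB/EiJ, C3H/HeJ and A/J, on a diet deficient in choline and folate or on its control diet. The members were chosen by name, as every gene probe of the array whose name in the scanner files is one of the 30 symbols, which gave 47 of 55681 distinct probes. All 30 genes were among the 15513 genes tested, and all 30 were well above background on all 24 arrays, with 0 saturated. By role they are 8 enzymes that lead from acetyl-CoA to farnesyl diphosphate or branch from it, 10 enzymes that lead from there through squalene to cholesterol, 6 genes of sterol sensing and transcription, and 6 genes of transport and esterification.

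In each strain, 4 arrays came from mice fed a deficient diet and 4 from mice fed its control diet. The deficient diet held 0.17% methionine and no choline or folic acid. The control diet was the same but with methionine at 0.4% and with added choline bitartrate (0.3%) and folic acid (2 mg/kg), and both diets were supplemented with iron. Mice were 8 weeks old at the start and 20 weeks old after 12 weeks of diet. The study's title concerns liver injury that varies with strain and the lipid genes that go with it. The labels number the arrays of a group as separate samples but do not say that each is a separate animal, so the p-values rest on a spread that may be partly technical.

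Cholesterol is built from acetyl-CoA through mevalonate, the isoprenoid farnesyl diphosphate and squalene. When sterols in the endoplasmic reticulum are low, SCAP carries the transcription factor SREBP2 to the Golgi, where it is cut and released to activate the enzymes of the pathway; when sterols are high, INSIG proteins hold SCAP back. The oxysterol receptor LXR-alpha acts on the other arm and activates the transporters that move cholesterol out of the cell. In the liver, cholesterol leaves through ABCG5 and ABCG8 into bile or through ABCA1 onto apolipoprotein A-I, or is esterified for storage and lipoprotein assembly.

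Levels are log2 processed intensities minus the 75th percentile of the array, so a level of 0 is that percentile, and levels of different genes cannot be compared because each rests on its own probe. Differences are log2, deficient minus control, and each is followed by ± its limma standard error (n = 4 arrays in each group). A gene counts as called at a Benjamini-Hochberg adjusted p of at most 0.05 in limma over all 15513 genes. On each array 44.4% to 56.0% of gene spots were well above background. In genes outside the set several arrays stood apart from their groups. C3H/HeJ control 2 differed by over 1 log2 unit from the mean of its group's other arrays in 629 of the 11922 genes whose other 3 arrays lay within 0.5 of each other, more genes than on any other array. A/J control 4 correlated least with the arrays of its group (mean r 0.979) and had high muscle transcripts, among them Cacna1s (4.70 log2 above the other 3 control arrays) and Flnc (4.45). A/J deficient 4 and C3H/HeJ deficient 4 had the lowest macrophage marker level of their groups. Exocrine pancreas markers averaged 2.41 on A/J deficient 1, against -3.21 to -2.63 on the other 3 arrays of its group, and 1.16 on WSB/EiJ deficient 4, against -3.91 to -2.92. Counts of called members without 1 array at a time are given beside the counts or as ranges.

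Markers of hepatocytes and of other cell types moved with diet in the same livers. All 8 hepatocyte markers were tested, and their mean level was 7.79 to 8.07 in deficient WSB/EiJ livers against 9.03 to 9.23 in controls, 7.80 to 8.61 against 8.63 to 9.01 in C3H/HeJ and 8.15 to 8.68 against 8.71 to 9.02 in A/J. Of these 8 markers, 8 were called lower in WSB/EiJ (median -1.20), 2 in C3H/HeJ (median -0.49) and 1 in A/J (median -0.44). Of all genes tested, 51.6%, 18.5% and 2.47% were lower and 24.5%, 14.4% and 3.1% higher in WSB/EiJ, C3H/HeJ and A/J. With spike-in scaling 8.09% of all genes were lower and 69.6% higher in WSB/EiJ. Of 11 macrophage markers, 10, 8 and 5 were called higher in the same order of strains, with mean levels of 2.83 to 3.24 in deficient WSB/EiJ livers against -1.5 to -1.11 in controls, 1.26 to 2.36 against -0.75 to -0.19 in C3H/HeJ and 1.41 to 2.48 against -0.19 to 0.53 in A/J. The 4 markers with the lowest adjusted p were Gpnmb, Cd68, Trem2 and Csf1r, all of them macrophage genes in WSB/EiJ, with Cd68 at 4.15 ± 0.09 (adjusted p = 7.65e-08). Stellate and fibroblast markers were called higher for 8, 6 and 2 of 8 genes. Of 4 biliary markers, 4 were called higher in WSB/EiJ (median 1.93), 2 in C3H/HeJ (1.11) and 0 in A/J, where 1 was lower (-0.11). Of 4 exocrine pancreas markers tested, 2 were called higher in WSB/EiJ (median 2.07), 1 was lower in C3H/HeJ (-0.55) and 0 were called in A/J (1.23). Of 4 endothelial markers, 2 were lower in WSB/EiJ (median -0.29), and 1 was higher in C3H/HeJ (0.10) and 1 in A/J (0.05). The part of these shifts in the results below was not tested, and in whole liver fewer cells of a type cannot be told apart from less RNA per cell.

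In WSB/EiJ livers on the deficient diet, 23 of the 30 cholesterol genes fell and 1, Soat2, rose, on a scale on which 51.6% of all genes tested were lower and 24.5% higher (76% called), and scaling on the spike-in probes instead left 6 lower and 8 higher, where 8.09% of all genes were lower and 69.6% higher. The median member was at -1.03, against -0.34 for all genes. The lower genes came from every role: 6 of 8 enzymes up to farnesyl diphosphate (median -1.0), 8 of 10 from squalene to cholesterol (median -1.16) and 5 of 6 genes of sensing (median -0.63) were lower, as were 4 of 6 genes of transport and esterification (median -1.21), the role that holds Soat2. Within slides 1, 2 and 3 the members' median was -0.82, -1.08 and -1.31, and all 24 called members kept their sign on each slide. They were called on these same arrays, so their signs are no separate support. Groups did not overlap for 19 of the 30 members, all of them called, and for 69.9% of all genes.

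**Figure D1:**
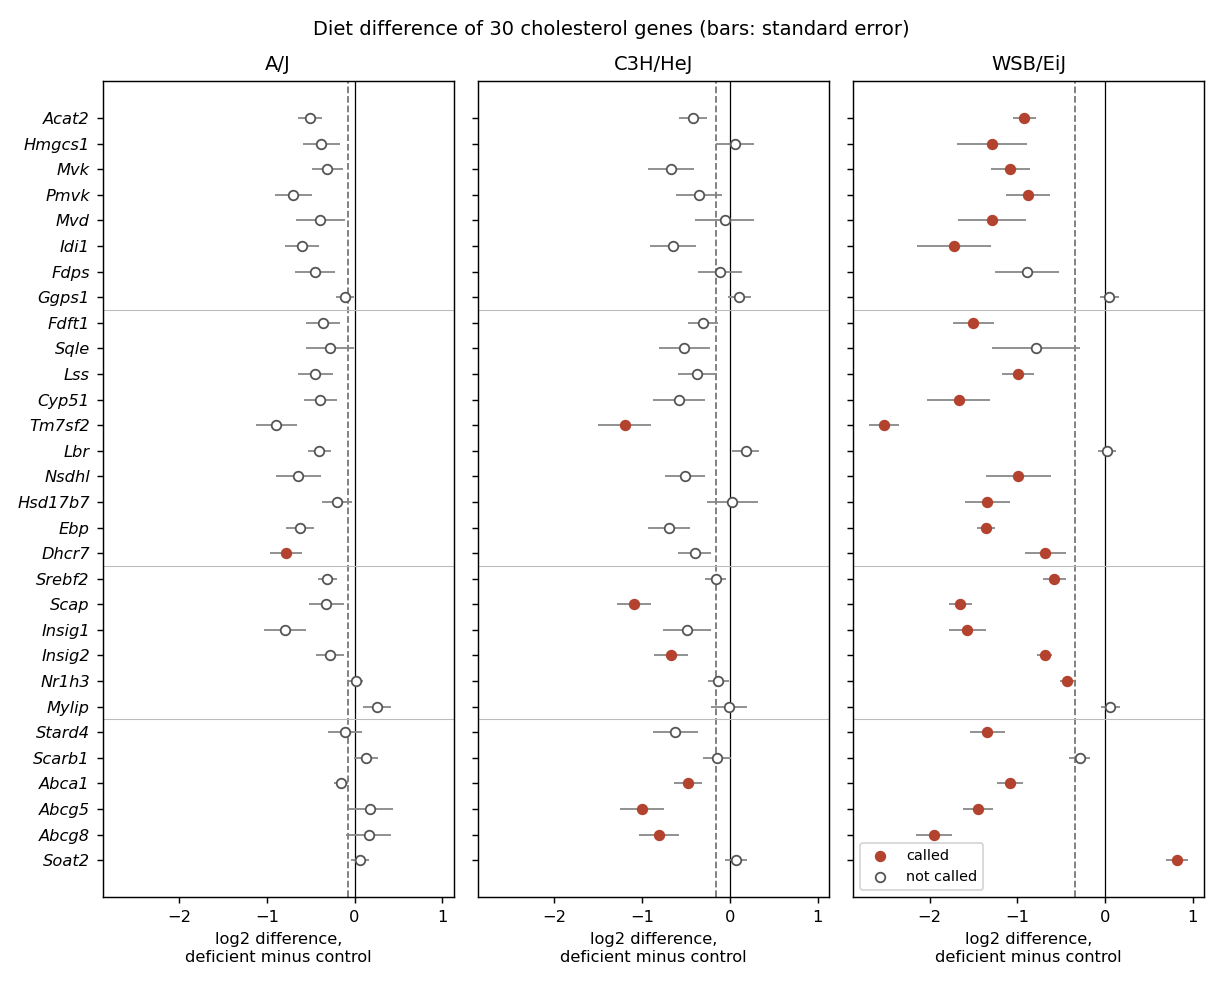
Log2 difference, deficient minus control, of each of the 30 genes in WSB/EiJ, C3H/HeJ and A/J, grouped by role, with bars of 1 limma standard error, filled points for genes called at an adjusted p of at most 0.05 and a dashed line at the median of all genes. WSB/EiJ has 24 filled points, 23 of them below 0 with Soat2 above it, C3H/HeJ 6 and A/J 1; with spike-in scaling 8 members are called higher and 6 lower in WSB/EiJ, against 69.6% and 8.09% of all genes.

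Among the enzymes from squalene to cholesterol, Tm7sf2, a sterol C14-reductase (probe on chromosome 19, 6062882 to 6062941 of mouse build NCBI37), showed the largest fall of the 30 genes. The levels of this gene were 4.00, 4.37, 4.40 and 4.02 in deficient WSB/EiJ livers, against 6.94, 6.83, 6.84 and 6.26 in controls. The groups stood far apart, a difference of -2.52 ± 0.17 (5.74-fold lower, adjusted p = 5.44e-06). Ebp, the sterol isomerase named for binding emopamil, had levels of 7.13, 7.24, 7.45 and 7.22 in deficient livers against 8.65, 8.52, 8.78 and 8.53 in controls. Each deficient array was below each control array and the arrays of a diet lay close together (-1.36 ± 0.10, adjusted p = 6.96e-06). Fdft1, squalene synthase, the first enzyme committed to sterols, had levels of 2.88, 2.79, 2.82 and 2.64 in deficient livers against 4.50, 4.46, 4.64 and 3.52 in controls. The groups did not overlap, although control 4 lay between the other controls and the deficient arrays (-1.5 ± 0.23, adjusted p = 4.79e-04).

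Of the other enzymes after squalene, Cyp51, the lanosterol demethylase (-1.67 ± 0.36, adjusted p = 0.00296), Hsd17b7 (-1.34 ± 0.26, 0.00182) and Nsdhl (-0.99 ± 0.37, 0.0358), both of the C4-demethylation steps, Lss, which closes the sterol rings (-0.99 ± 0.18, 0.00132), and Dhcr7, the reductase of a late step (-0.68 ± 0.23, 0.0241), were also lower. Nsdhl kept its call in 10 of 20 alternative settings and Dhcr7 in 11, and Cyp51, Hsd17b7 and Lss in 19 each. Squalene epoxidase, Sqle, had levels of 4.36, 4.24, 4.03 and 4.12 in deficient livers against 5.59, 5.44, 5.63 and 3.24 in controls. Control arrays 1 to 3 were above all deficient arrays and control 4 was below them, and the difference of -0.79 ± 0.50 was not called (adjusted p = 0.185). Lbr, which also has sterol C14-reductase activity but is a protein of the nuclear envelope, was at 0.62, 0.73, 0.54 and 0.94 in deficient livers against 0.72, 0.66, 0.82 and 0.56 in controls (0.02 ± 0.10, adjusted p = 0.885). The 95% interval of that difference ran from -0.22 to 0.26.

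Among the enzymes up to farnesyl diphosphate, Acat2, the cytosolic thiolase that condenses acetyl-CoA, had levels of 5.83, 5.62, 5.96 and 5.37 in deficient WSB/EiJ livers against 6.60, 6.55, 6.78 and 6.52 in controls. The groups did not overlap (-0.92 ± 0.13, adjusted p = 3.35e-04). Idi1, the isopentenyl diphosphate isomerase, had levels of 3.86, 4.17, 3.91 and 4.02 in deficient livers against 6.15, 6.23, 6.17 and 4.26 in controls. Control arrays 1 to 3 were far above the deficient ones and control 4 was only just above them (-1.72 ± 0.42, adjusted p = 0.00574). Hmgcs1, the cytosolic HMG-CoA synthase, had levels of 5.68, 5.72, 5.54 and 5.76 in deficient livers against 7.39, 7.47, 7.39 and 5.59 in controls, so that control 4 lay among the deficient arrays (-1.29 ± 0.40, adjusted p = 0.0172). The next 3 enzymes of the mevalonate pathway, Mvk (-1.08 ± 0.22, adjusted p = 0.00244), Pmvk (-0.88 ± 0.25, 0.0122) and Mvd (-1.29 ± 0.39, 0.0158), were lower as well. Fdps, farnesyl diphosphate synthase, was at -0.89 ± 0.36 and just missed the threshold (adjusted p = 0.0503), and Ggps1, which takes farnesyl diphosphate out of the sterol path, was at 0.05 ± 0.11 (adjusted p = 0.700).

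The promoters of these genes were examined because SREBP2 acts through sterol regulatory elements in them, commonly beside a CCAAT box bound by NF-Y. Windows of 250 bases before to 50 after the start, from RefSeq on build GRCm38.p6, were found by symbol for 24 of the 30 members. One form of the sterol regulatory element, TCACNCCAC on either strand, was present in 1 of the 24 (4.17%), the window of Hmgcs1, and in 408 of all 32851 windows (1.24%). CCAAT on either strand was present in 17 of the 24 (70.8%) and in 12289 of all windows (37.4%). The motifs can share an end letter but do not overlap in the window of Hmgcs1, and other forms of the element were not searched for. Of the windows, the 250 bases before the start are shown for 4 genes, chosen after the values were seen because Hmgcs1 holds the element and Idi1, Tm7sf2 and Insig1 are among the members with the largest falls. Capitals mark TCACNCCAC and CCAAT or their complements, and each sequence is written 5′ to 3′ on the strand of the gene, which is the reverse strand for Tm7sf2 and the forward strand for the rest.
Hmgcs1 (chr13:119690101-119690350): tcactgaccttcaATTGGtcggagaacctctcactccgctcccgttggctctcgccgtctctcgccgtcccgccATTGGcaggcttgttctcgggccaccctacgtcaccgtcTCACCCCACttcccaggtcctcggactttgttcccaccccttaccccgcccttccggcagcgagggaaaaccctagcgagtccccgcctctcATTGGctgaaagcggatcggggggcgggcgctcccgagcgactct
Idi1 (chr13:8885356-8885605): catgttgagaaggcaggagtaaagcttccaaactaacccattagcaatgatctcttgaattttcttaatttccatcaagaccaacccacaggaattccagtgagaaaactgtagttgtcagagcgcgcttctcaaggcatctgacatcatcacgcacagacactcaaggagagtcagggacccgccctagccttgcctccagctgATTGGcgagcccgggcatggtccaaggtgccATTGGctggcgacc
Tm7sf2 (chr19:6067851-6068100): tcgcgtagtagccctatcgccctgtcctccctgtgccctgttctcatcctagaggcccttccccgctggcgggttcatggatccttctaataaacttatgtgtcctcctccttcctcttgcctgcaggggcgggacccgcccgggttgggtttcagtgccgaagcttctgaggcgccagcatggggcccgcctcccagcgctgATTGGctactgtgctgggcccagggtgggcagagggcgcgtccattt
Insig1 (chr5:28071162-28071411): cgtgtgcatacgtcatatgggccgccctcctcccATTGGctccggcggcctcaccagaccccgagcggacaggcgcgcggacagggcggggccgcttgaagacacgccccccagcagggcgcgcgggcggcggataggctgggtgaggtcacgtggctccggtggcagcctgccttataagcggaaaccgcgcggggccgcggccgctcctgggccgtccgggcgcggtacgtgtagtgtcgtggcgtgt
The 250 bases shown hold 3 CCAAT boxes and 1 element for Hmgcs1, 2 boxes for Idi1 and 1 box each for Tm7sf2 and Insig1. The windows of Abcg8 (-1.95 in WSB/EiJ) and Scap (-1.65), which fell by more than Insig1 (-1.57), hold neither motif. A match of letters is a description of the window and not evidence of binding.

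Genes of sterol sensing were lower too. Scap (probe on chromosome 9, 110287280 to 110287339) had levels of 4.78, 4.77, 5.18 and 4.55 in deficient WSB/EiJ livers against 6.49, 6.55, 6.44 and 6.44 in controls. The groups were separated by more than 1 log2 unit (-1.65 ± 0.13, 3.15-fold lower, adjusted p = 1.1e-05). Insig1, itself a target of SREBP2 (probe on chromosome 5, 28404246 to 28404305), had levels of 1.35, 1.00, 1.23 and 1.13 in deficient livers against 2.96, 2.88, 3.07 and 2.10 in controls, again with control 4 the lowest control (-1.57 ± 0.21, adjusted p = 1.91e-04). Insig2, the other INSIG gene, that is not driven by SREBP2, had levels of 6.41, 6.41, 6.57 and 6.33 in deficient livers against 7.18, 7.03, 6.99 and 7.28 in controls, a smaller difference without overlap (-0.69 ± 0.09, adjusted p = 2.01e-04). Srebf2, which encodes SREBP2 (-0.58 ± 0.13, adjusted p = 0.00417, with a second probe at 0.85), and Nr1h3, which encodes LXR-alpha (-0.43 ± 0.08, adjusted p = 0.00107), were lower by less. Insig2 and Nr1h3 were above 0 after quantile normalization (0.10 and 0.32), normexp correction (0.12 and 0.30) or spike-in scaling (0.31 and 0.58). With spike-in scaling 3 of the 5 sensing genes called lower were called higher, Insig2 (adjusted p = 0.0151), Nr1h3 (2.18e-04) and Srebf2 (0.43, adjusted p = 0.0163). Mylip, an LXR target that marks lipoprotein receptors for degradation, was at 0.06 ± 0.11 (adjusted p = 0.621).

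In the transport arm, both subunits of the sterol exporter of the bile canaliculus fell. Abcg8 (probe on chromosome 17, 85098745 to 85098804) had levels of -2.78, -3.36, -2.58 and -3.36 in deficient WSB/EiJ livers against -1.10, -1.10, -1.32 and -0.78 in controls (-1.95 ± 0.21, 3.85-fold lower, adjusted p = 5.18e-05). Abcg5, its neighbour in the genome (85057593 to 85057652), had levels of 2.58, 2.16, 2.85 and 2.24 in deficient livers against 4.01, 3.74, 3.74 and 4.12 in controls (-1.45 ± 0.17, adjusted p = 9.41e-05). Neither pair of groups overlapped, and control 4 was not low for either gene. Abca1, which loads cholesterol onto apolipoprotein A-I, had levels of 2.46, 2.74, 2.91 and 2.44 in deficient livers against 3.60, 3.62, 3.58 and 4.08 in controls (-1.08 ± 0.15, adjusted p = 2.82e-04). Stard4, a sterol carrier of the cytosol, had levels of 1.22, 1.42, 1.31 and 1.06 in deficient livers against 2.96, 2.74, 2.67 and 2.02 in controls (-1.34 ± 0.20, adjusted p = 3.22e-04). For both, every deficient array was below every control array. Scarb1, the scavenger receptor that takes up cholesterol esters from HDL, was at -0.29 ± 0.12 (adjusted p = 0.0588).

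Soat2, the sterol acyltransferase of hepatocytes and enterocytes (probe on chromosome 15, 101993657 to 101993716), ran the other way. Its levels were 3.47, 3.34, 3.55 and 3.17 in deficient WSB/EiJ livers against 2.37, 2.72, 2.38 and 2.78 in controls. All deficient arrays were above all control arrays (0.82 ± 0.13, 1.77-fold higher, adjusted p = 5.44e-04).

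**Figure D2:**
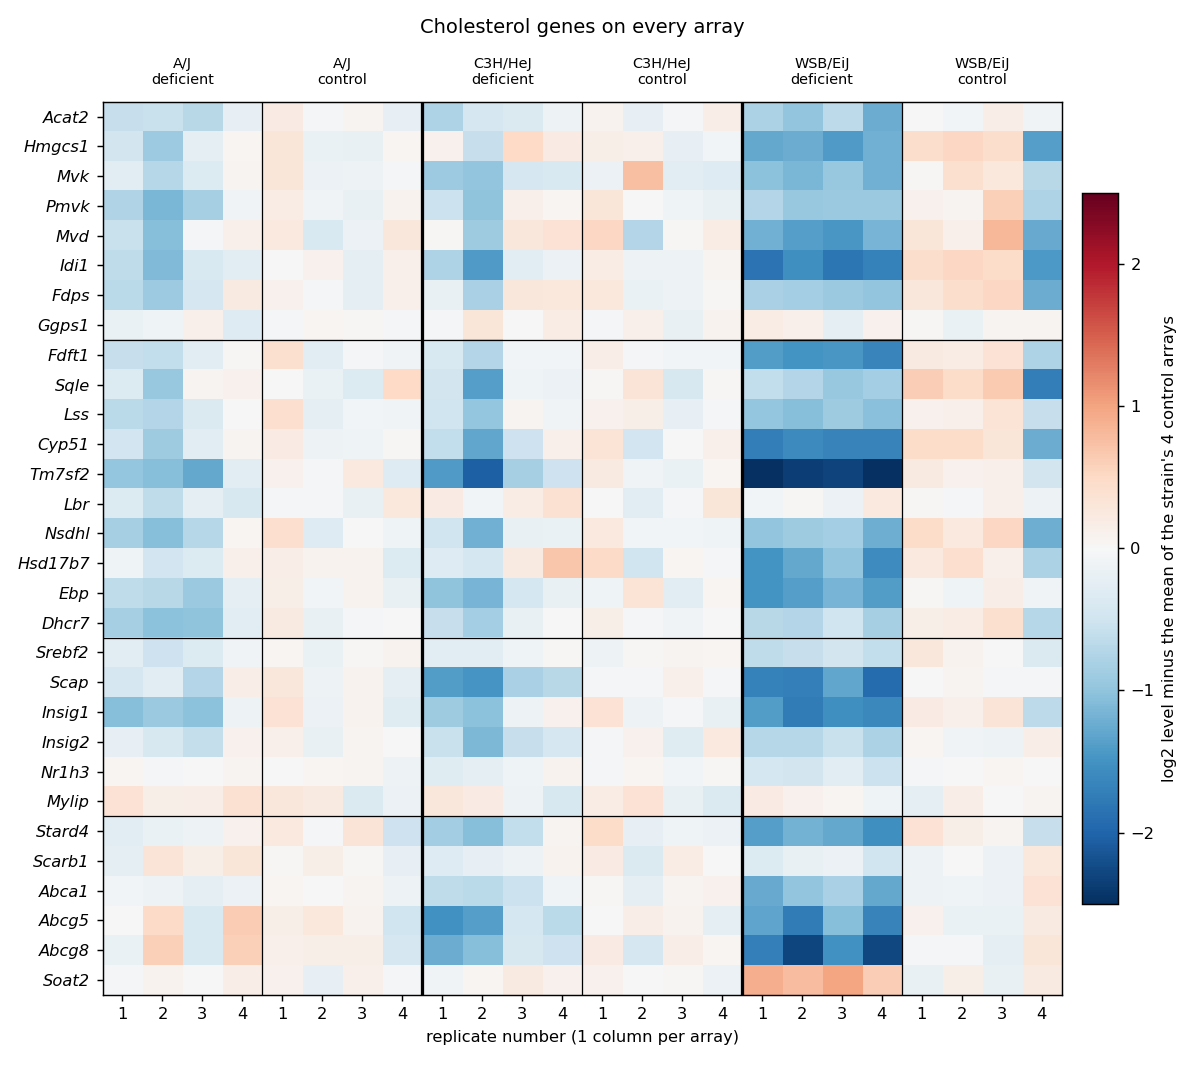
Deviation of each of the 30 genes on each of the 24 arrays from the mean of its strain's control arrays, in log2 units, with genes in rows by role and arrays in columns by strain and diet. Most genes are below the control mean on the 4 deficient WSB/EiJ arrays, Soat2 is above it, and WSB/EiJ control 4 is below it for 17 of the 18 synthesis enzymes; with spike-in scaling the members' median in WSB/EiJ is -0.03 in place of -1.03.

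WSB/EiJ control 4 differed from the other 3 controls in these genes. The mean of the 18 synthesis enzymes relative to the strain's control mean was -0.81 on this array, against 0.23, 0.22 and 0.36 on the other controls, and was -1.09, -1.08, -1.07 and -1.17 on the deficient arrays. It was below the control mean for 17 of the 18 enzymes, while the median of all genes on it was 0. By Dixon's criterion it was the outlying low control for 8 of 30 members, against 0.69% of the 15513 genes. Among 11750 genes whose other 3 controls lay within 0.5 of each other, its 20 lowest genes held 6 members, Sqle first (-2.31), then Idi1 (-1.92), Hmgcs1 (-1.83), Cyp51 (-1.64), Fdps (-1.64) and Nsdhl (-1.63), and no other array had more than 1 member among its 20. The mean correlation of this array with its group was 0.992 (0.992 to 0.993 for the others), and its hepatocyte marker level (9.23) and macrophage marker level (-1.11) were both the highest of the 4 controls. Abca1 was the highest of the 4 controls on it (4.08).

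Leaving out this control array raised the number of lower members to 25, with Soat2 still higher, and set the median at -1.34, where 49.6% of all genes were lower and 23.8% higher. Sqle (-1.36 ± 0.11, adjusted p = 3.77e-05) and Fdps (-1.30, adjusted p = 2.48e-05) were then called, Idi1 was at -2.20 and Hmgcs1 at -1.75. This array was singled out because these genes were low on it, so their larger falls and new calls follow from that choice. No other single array of WSB/EiJ moved the number of lower members outside 21 to 25.

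**Figure D3:**
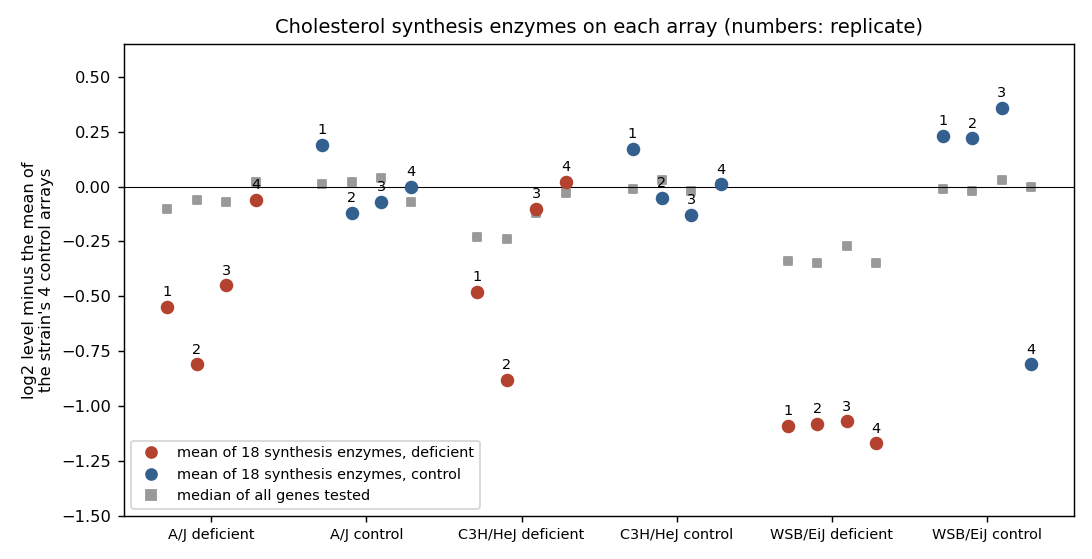
Mean deviation of the 18 synthesis enzymes from the strain's control mean, in log2 units, 1 point per array, deficient left of control in each strain. In WSB/EiJ the deficient arrays lie between -1.17 and -1.07 with control 4 at -0.81, and deficient array 4 of A/J and deficient arrays 3 and 4 of C3H/HeJ lie among the controls; spike-in scaling turns the members' median above 0 in A/J (0.02) and C3H/HeJ (0.08).

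In C3H/HeJ livers on the deficient diet, 6 of the 30 genes fell and 0 rose, where 18.5% of all genes were lower and 14.4% higher (32.9% called). With spike-in scaling 2 were lower and 1 higher, where 2.78% of all genes were lower and 21.4% higher. The 6 were sensing and transport genes and 1 reductase, Tm7sf2, and all 6 were also among the 24 of WSB/EiJ. The median member was at -0.41 (all genes -0.16), and 25 of 30 were below 0, as were 9812 of the 15513 genes tested. Within slides 1, 2 and 3 the median was -0.06, -0.58 and -0.75, and the 6 called genes kept their sign on each. They were called on these same arrays, so their signs are no separate support.

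Scap had levels of 5.22, 5.13, 5.81 and 5.92 in deficient C3H/HeJ livers against 6.56, 6.58, 6.75 and 6.56 in controls (-1.09 ± 0.19, adjusted p = 0.00534). Tm7sf2 had levels of 5.69, 5.06, 6.28 and 6.58 in deficient livers against 7.32, 7.02, 6.93 and 7.15 in controls (-1.20 ± 0.30, adjusted p = 0.0193). Abcg5 had levels of 4.37, 4.51, 5.46 and 5.23 in deficient livers against 5.87, 6.05, 5.98 and 5.66 in controls (-1.0 ± 0.25, adjusted p = 0.0191). None of these groups overlapped, and the deficient arrays spread more widely than the controls. Insig2 was at 4.98, 4.42, 4.96 and 5.13 against 5.51, 5.64, 5.23 and 5.78 in controls, also without overlap (-0.67 ± 0.19, adjusted p = 0.0275), but its second probe was at 0.09 and the call was lost in 13 of 20 alternative settings. Abcg8 was at -0.45, -0.28, 0.39 and 0.28 against 1.01, 0.37, 0.96 and 0.84 in controls (-0.81 ± 0.23, adjusted p = 0.0284). Abca1 was at 3.07, 3.03, 3.18 and 3.63 against 3.74, 3.48, 3.78 and 3.82 in controls (-0.48 ± 0.16, adjusted p = 0.0478). In these last 2 genes 1 deficient array lay above 1 control, and their calls were lost in 8 (Abcg8) and 11 (Abca1) of the 20 settings.

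The enzymes of C3H/HeJ were mostly not called. Ebp (-0.69 ± 0.24, adjusted p = 0.0536), Acat2 (-0.42 ± 0.16, 0.0675), Mvk (-0.67 ± 0.26, 0.0792) and Idi1 (-0.65 ± 0.26, 0.0862) came nearest, while Hmgcs1 was at 0.06 ± 0.22 and Hsd17b7 at 0.03 ± 0.29. Relative to the controls' mean, the 18 enzymes averaged -0.48, -0.88, -0.10 and 0.02 on the deficient arrays and 0.17, -0.05, -0.13 and 0.01 on the controls. Deficient 3 and 4 lay among the controls. On deficient 4 the hepatocyte marker level (8.61) was the highest and the macrophage marker level (1.26) the lowest of its group. Without it 12 genes were lower, the added ones being Acat2, Cyp51, Dhcr7, Ebp, Idi1 and Stard4, and 28.8% of all genes were lower and 16.9% higher. The number was 2 without deficient 1 or 2, 3 without control 1 or 4, 4 without control 3 or deficient 3, and 5 without control 2. Deficient 4 was singled out for its values in these genes, so the count of 12 is no separate support.

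Of the 30 genes only Dhcr7 passed the test in deficient A/J livers, where 2.47% of all genes were lower and 3.1% higher (5.57% called), and with spike-in scaling 0 of the 30 were lower and 2 higher, against 0.909% and 17.7% of all genes. Its levels were 1.41, 1.23, 1.23 and 1.98 in deficient livers against 2.48, 2.06, 2.21 and 2.23 in controls (-0.78 ± 0.18, adjusted p = 0.0489). The groups did not overlap, but the call was lost in 12 of 20 alternative settings, among them those without any 1 of the arrays other than deficient 4. The median member was at -0.34 (all genes -0.07) and 24 of 30 were below 0, among them all 18 synthesis enzymes. Of the 15513 genes tested, 9153 were below 0. At an unadjusted p under 0.05 in limma, 10 members were lower and 0 higher, and the share of all genes at that cut is not given here. Within slides the median was -0.51, -0.27 and -0.40.

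Several A/J genes came near the threshold with 1 deficient array apart. Tm7sf2 had levels of 5.98, 5.89, 5.67 and 6.69 in deficient livers against 7.06, 6.89, 7.20 and 6.63 in controls (-0.89 ± 0.23, adjusted p = 0.0578). Insig1 had levels of 1.45, 1.59, 1.5 and 2.39 in deficient livers against 2.87, 2.38, 2.61 and 2.21 in controls (-0.79 ± 0.24, adjusted p = 0.0861). In both, deficient 4 alone reached into the control range. On that array the 18 enzymes averaged -0.06, against -0.55, -0.81 and -0.45 on the other deficient arrays and 0.19, -0.12, -0.07 and 0.00 on the controls. Its hepatocyte markers (8.68) were the highest and its macrophage markers (1.41) the lowest of its group. Without it 8 genes were lower, Dhcr7, Acat2, Ebp, Fdps, Insig1, Nsdhl, Pmvk and Tm7sf2, while 1774 genes were called in all (11.4%, with 6.08% lower). Without both A/J arrays numbered 4, 8 members and 2835 genes were called. Deficient 4 was singled out for its values in these genes, so both counts of 8 are no separate support. Of the transport genes in A/J, Abcg5 was at 0.18 ± 0.26 (adjusted p = 0.676), Abcg8 at 0.16 ± 0.26 (0.707) and Soat2 at 0.06 ± 0.10 (0.741).

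The difference between the strains' diet effects was tested directly, over the 4 groups of each pair of strains. Between WSB/EiJ and A/J it was called for 14 members, 12 more negative and 2 more positive in WSB/EiJ, where 36.9% of all genes were more negative and 17.4% more positive (54.3% called). Of the sterol exporter's subunits, Abcg8 differed by -2.11 ± 0.35 (adjusted p = 2.46e-04) and Abcg5 by -1.63 ± 0.32 (9.35e-04). Tm7sf2 (-1.63 ± 0.30, adjusted p = 5.15e-04) and Scap (-1.34 ± 0.25, 5.35e-04) were also more negative. The others of the 12 were Cyp51, Stard4, Fdft1, Hsd17b7, Abca1, Mvk, Ebp and Nr1h3, between -1.27 and -0.45. Soat2 (0.76 ± 0.16, adjusted p = 0.00162) and Lbr (0.42 ± 0.17, 0.0453) were the 2 more positive ones. Mvk kept its call in 7 of 29 alternative settings and Lbr in 10, and each of the others in 26 or more. The members' median was -0.64, against -0.27 for all genes.

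Between WSB/EiJ and C3H/HeJ the diet effects differed for 6 members, where 22.8% of all genes were called (13.9% more negative, 8.93% more positive). Hsd17b7 (-1.37 ± 0.41, adjusted p = 0.0291), Tm7sf2 (-1.32 ± 0.37, 0.0207), Fdft1 (-1.18 ± 0.29, 0.0120), Abcg8 (-1.14 ± 0.32, 0.0220) and Insig1 (-1.09 ± 0.36, 0.0419) were more negative in WSB/EiJ, and Soat2 (0.75 ± 0.17, 0.00741) was more positive. Insig1 kept its call in 10 of 28 alternative settings, Hsd17b7 in 18, Abcg8 in 24 and Fdft1 in 27. The differences from C3H/HeJ share the WSB/EiJ arrays with those against A/J. Without WSB/EiJ control 4 the numbers were 21 against A/J and 14 against C3H/HeJ, and without C3H/HeJ deficient 2 the number against C3H/HeJ was 12. The shares of all genes with these arrays left out are not given here. Between C3H/HeJ and A/J limma called 0 members, where 0.993% of all genes were more positive and 0.516% more negative (1.51% called), and also 0 with all 6 groups in 1 fit. At an unadjusted p under 0.05 in limma 4 members passed, and the share of all genes at that cut is not given here. The fall of Abcg5 and Abcg8 in C3H/HeJ was thus not shown to differ from A/J.

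**Figure D4:**
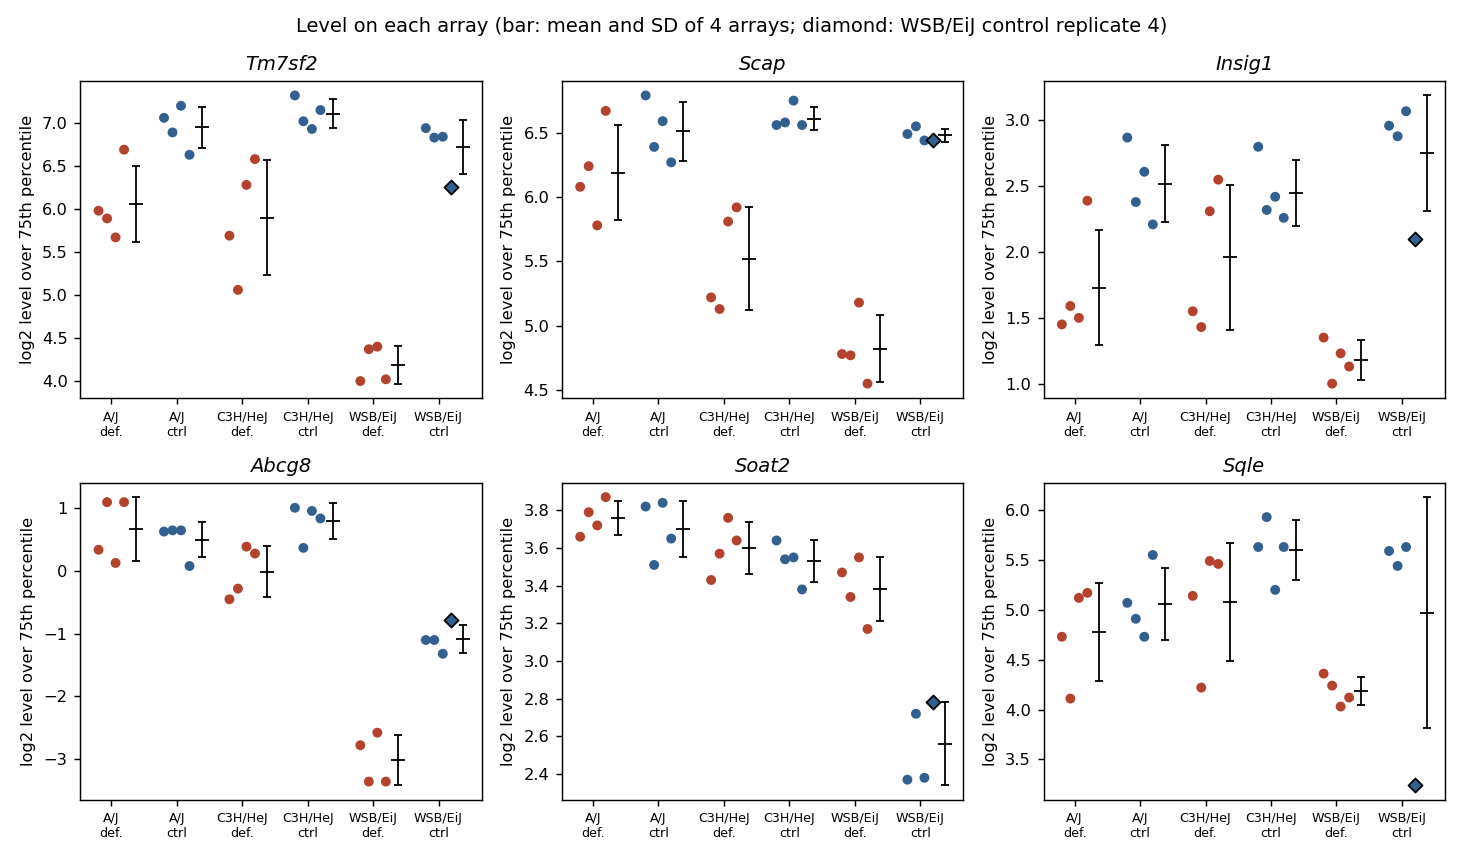
Log2 level over the array's 75th percentile of 6 members on each array, deficient (def.) left of control (ctrl) in each strain, with the mean and SD of 4 arrays and a diamond for WSB/EiJ control 4. In WSB/EiJ the deficient arrays of Tm7sf2, Scap, Insig1 and Abcg8 lie below all controls and those of Soat2 above them, while Sqle on control 4 (3.24) lies below every other array of the strain; Abcg8 and Soat2 are lower in WSB/EiJ controls than in the controls of the other strains.

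On the control diet the strains already differed at some of the same genes. These comparisons share the control arrays with those of diet, so a low control level enters both. Between WSB/EiJ and C3H/HeJ controls 8 members were called, 3 higher and 5 lower in WSB/EiJ, where 21.5% of all genes were higher and 18.8% lower (40.3% called). The number was 13 without WSB/EiJ control 4 and 5 without WSB/EiJ control 1 or C3H/HeJ control 3, with the shares of all genes not given here. Between WSB/EiJ and A/J controls 7 were called, 2 higher and 5 lower, where 27.6% of all genes were higher and 18.7% lower (46.4% called). Abcg5 was 4.01, 3.74, 3.74 and 4.12 in WSB/EiJ controls, against 5.87, 6.05, 5.98 and 5.66 in C3H/HeJ and 5.30, 5.43, 5.25 and 4.66 in A/J. The difference was -1.99 ± 0.13 from C3H/HeJ (adjusted p = 1.43e-05) and -1.25 ± 0.18 from A/J (8.62e-04). Abcg8 was lower by a like amount (-1.87 ± 0.17 and -1.58 ± 0.17, adjusted p = 8.08e-05 and 1.72e-04).

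Soat2 was lower in WSB/EiJ controls, at 2.37, 2.72, 2.38 and 2.78, than in C3H/HeJ (3.64, 3.54, 3.55 and 3.38) and A/J controls (3.82, 3.51, 3.84 and 3.65), by -0.97 ± 0.12 and -1.14 ± 0.13. Stard4 was lower in WSB/EiJ controls by -2.20 ± 0.23 against C3H/HeJ and -1.82 ± 0.25 against A/J, but a second probe gave -0.70 and -0.17. Insig2 was higher by 1.58 ± 0.13 and 1.54 ± 0.10, and its second probe gave 1.49 and 0.56. The size of both differences thus varied with the probe. Abcg5, Abcg8, Soat2, Acat2 and Lss have 1 probe each, so their strain differences could not be read on another. Acat2 was higher in WSB/EiJ by 0.38 ± 0.11 and 0.53 ± 0.11, calls kept in 12 of 20 and 20 of 21 alternative settings. Lss (-0.57 ± 0.20, adjusted p = 0.0492) and Lbr (0.44 ± 0.13, 0.0261) were called against C3H/HeJ alone, each keeping its call in 10 of 20. Hsd17b7 (-0.76 ± 0.26, adjusted p = 0.043) was called against A/J alone and kept its call in 13 of 21. Between C3H/HeJ and A/J controls 2 members were called, where 10.8% of all genes were higher and 7.86% lower (18.7% called): Hmgcs1, at 6.18, 6.15, 5.82 and 5.97 in C3H/HeJ against 7.83, 7.37, 7.35 and 7.58 in A/J (-1.5 ± 0.14, adjusted p = 2.84e-04), and Abcg5 (0.73 ± 0.18, adjusted p = 0.0260). The call of Abcg5 was lost without C3H/HeJ control 1, 2 or 3, which for control 2 or 3 left Hmgcs1 as the 1 member called.

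Of the 30 members, 15 have several probes, and on some arrays the second probe of Fdft1, Hmgcs1, Lbr and Mylip was not well above background. Among members with several probes above background on all 8 arrays of a strain, the diet differences had 1 sign for 9 of 11 in WSB/EiJ, 7 of 11 in C3H/HeJ and 10 of 12 in A/J. Srebf2 was the plainest disagreement: the brighter probe (chromosome 15, 82034765 to 82034824) was at -0.58 in WSB/EiJ and the other (82030068 to 82030127) at 0.85, with opposite signs in the other strains too. The other probe of Lbr was not well above background on any control array of WSB/EiJ or C3H/HeJ, and is not read here. The 2 Tm7sf2 probes were at -2.57 and -2.52, and the Hsd17b7 probes ranged from -1.75 to -1.05. The direction of Srebf2 therefore depended on the probe, while Tm7sf2, Hsd17b7 and Stard4 (-1.34 and -1.89) were below 0 on each probe in WSB/EiJ.

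How far the set as a whole stood below 0 depended on the scale. In WSB/EiJ the members' median was -1.03 with the 75th percentile, -0.87 with median centring, -0.58 after quantile normalization, -0.54 after normexp correction and -0.03 on spike-ins, while the median of all genes was -0.34, -0.17, -0.05, -0.03 and 0.67. Relative to all genes the members stood at -0.70 on the main scale and with spike-in scaling alike, since both shift every gene of an array together, and 25 of 30 members were below the median gene. In C3H/HeJ and A/J the offset was -0.25 and -0.27, with 19 and 24 of 30 members below the median gene. With spike-in scaling 6 members were still lower in WSB/EiJ: Tm7sf2 (-1.52), Abcg8 (-0.94), Scap (-0.65), Insig1 (-0.57), Abcg5 (-0.44) and Ebp (-0.36). Members below 0 on the main scale and then above it were Acat2, Dhcr7, Fdps, Insig2, Lss, Nr1h3, Nsdhl, Pmvk, Scarb1, Sqle and Srebf2, between 0.01 and 0.71. The share of all calls that were higher moved from scale to scale in WSB/EiJ, being 32.2% on the main scale, 40.1% on medians, 47.9% after quantile normalization, 48.6% after normexp and 89.6% on spike-ins. In C3H/HeJ these shares were 43.7%, 60.9%, 53.9%, 53% and 88.5%, and in A/J 55.7%, 66.6%, 60.5%, 59.0% and 95.1%.

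**Figure D5:**
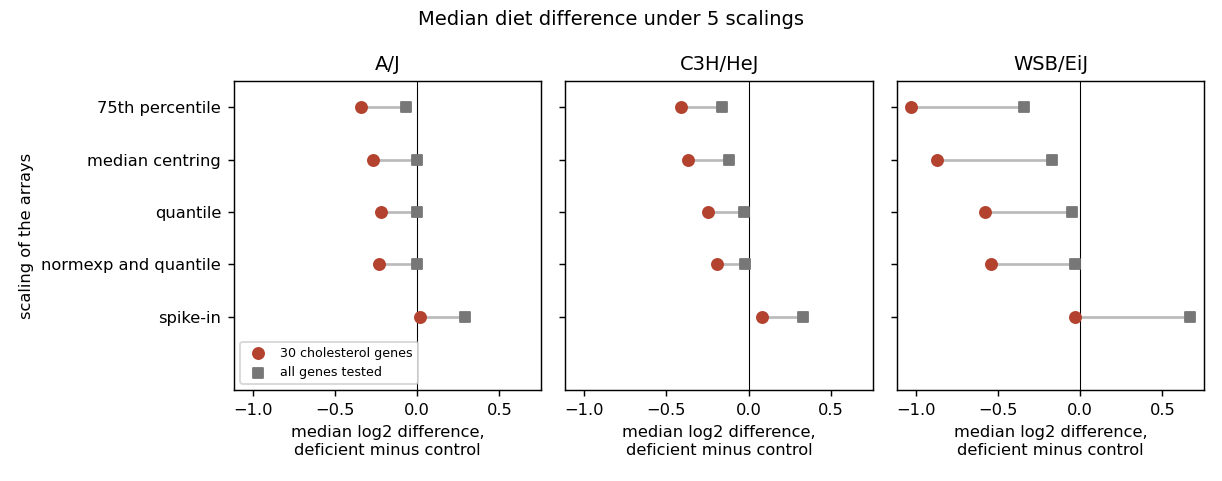
Median log2 difference, deficient minus control, of the 30 members (circles) and of all genes tested (squares) under 5 scalings, 1 panel per strain. The members' median lies below that of all genes under each scaling in each strain, and with spike-in scaling the members' median is 0.02 in A/J, 0.08 in C3H/HeJ and -0.03 in WSB/EiJ.

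Beside the members, a list of 30 related cholesterol genes was read, 29 of them tested. In WSB/EiJ 5 rose and 19 fell (median -0.64), where 24.5% of all genes were higher and 51.6% lower (median -0.34). In C3H/HeJ 3 rose and 7 fell (median -0.19), where 14.4% of all genes were higher and 18.5% lower (median -0.16). In A/J 1 rose and 1 fell (median -0.05), where 3.1% of all genes were higher and 2.47% lower (median -0.07). Abcg1, a cholesterol exporter abundant in macrophages, rose 7.13-fold in WSB/EiJ (2.83 ± 0.10, adjusted p = 2.06e-07). Soat1, the acyltransferase of macrophages and most other cells, rose 12.1-fold in WSB/EiJ (3.59 ± 0.31, adjusted p = 1.92e-05) and was also higher in C3H/HeJ (1.40 ± 0.28, 0.00808) and A/J (0.98 ± 0.18, 0.0272). Macrophage markers moved with both, as given above, and their part was not tested. Cyp27a1, the sterol 27-hydroxylase of bile acid synthesis, fell in WSB/EiJ (-2.10 ± 0.13, adjusted p = 3.7e-06) and C3H/HeJ (-1.44 ± 0.18, 0.00122), and Apoe fell in WSB/EiJ (-1.01 ± 0.09, 2.34e-05).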

How the data were processed

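Liver RNA was hybridised to 1-colour Agilent mouse arrays, 8 on each of 3 slides. Spot intensities were extracted by the authors with Agilent Feature Extraction 10.7, per the file headers, after subtraction of background and correction of trends across the array. Other values per the file headers are quality flags (0 or 1). The authors' deposited normalized intensities were the same processed signals multiplied by a single constant for each array (column medians 40.3 to 56.4), so they are linear and not centred by gene, and how the constants were chosen is not given in the sources used here. Columns without a sample numbered 0.

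Outlier-flagged spots were dropped (3332 in total), replicate spots averaged, and log2 signals scaled by the 75th percentile of each array. Of 55681 distinct probes, 32737 had a gene name, 26762 through an accession in RefSeq, 3819 by symbol, 639 by synonym and 1517 by the file's own name. A probe was kept if 1 or more groups had it well above background on all their arrays, and the brightest probe represented a gene. Positions of probes (NCBI37) come from the array files.

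Comparisons within and between strains were fitted with limma 3.58.1 in R 4.3.3 (files were read with data.table, version 1.17.8) on the groups compared only, which gave 9 comparisons, and the fit was tested on simulated data. All 30 members are named, the 12 called in a diet comparison with the lowest adjusted p are given on every array, and 4 related genes and 4 markers with the lowest adjusted p are named. Values on every array were added for Hmgcs1, Idi1, Sqle, Lbr and Dhcr7 after they were seen, as were the promoters shown. The members and lists were chosen with earlier results of these data known. Alternatives were median centring, quantile normalization, normexp correction (offset 50), scaling on 7 E1A spike-in probes, the deposited values, no filter on dim probes, a filter over all arrays, the mean of probes, a block for slide or for replicate number, all 6 groups in 1 fit, and arrays left out. Same-numbered arrays of the diets did not deviate together (r -0.349 to 0.061), so the numbers were not taken as pairs. Precision is limited by having 4 arrays a group.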

Additional observations from a re-analysis of the deposited data

Results flagged for a closer look

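By chance about 1 of 20 groups meets Dixon's criterion for 4 samples, which sets distance against the range of the 4 levels. By it, 19 of the 180 sets of 4 levels (30 genes in 6 groups) held an array apart from the other 3. Of these, 8 were low on WSB/EiJ control 4: Hmgcs1 at 5.59, Idi1 at 4.26, Fdps at 5.67, Fdft1 at 3.52, Sqle at 3.24, Cyp51 at 0.31, Tm7sf2 at 6.26 and Nsdhl at -0.42. Abca1 was high on the same array, at 4.08. Among the other WSB/EiJ arrays, Ggps1 was low on control 2 (-0.57), Nr1h3 high on control 3 (5.92) and Pmvk high on deficient 1 (5.35). The distance was small for Nr1h3, at 5.86 on the other controls, and for Ggps1, at -0.37 to -0.34 on the others. In A/J, Hsd17b7 (1.67) and Abcg8 (0.08) were low on control 4 and Insig1 was high on deficient 4 (2.39). In C3H/HeJ, Nsdhl (1.93) and Stard4 (5.25) were high on control 1, Mvk on control 2 (5.91) and Scap on control 3 (6.75). Of all genes, 2.55% were low on A/J control 4, 3.46% high on C3H/HeJ control 2 and 0.69% low on WSB/EiJ control 4. For the other arrays and directions named, the share was 0.271% to 1.41%.

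The effect of diet differed between strains for 20 tested differences, all by limma's test of the difference itself. They were 14 between WSB/EiJ and A/J (54.3% of all genes called) and 6 between WSB/EiJ and C3H/HeJ (22.8%). Against A/J they were Abcg8 (-2.11), Tm7sf2 (-1.63), Abcg5 (-1.63), Scap (-1.34), Cyp51 (-1.27), Stard4 (-1.23), Fdft1 (-1.14), Hsd17b7 (-1.13), Abca1 (-0.93), Mvk (-0.77), Ebp (-0.74), Nr1h3 (-0.45), Lbr (0.42) and Soat2 (0.76). Against C3H/HeJ they were Hsd17b7 (-1.37), Tm7sf2 (-1.32), Fdft1 (-1.18), Abcg8 (-1.14), Insig1 (-1.09) and Soat2 (0.75). Those of Abcg5, Abcg8, Scap, Soat2 and Tm7sf2 against A/J, and of Soat2 and Tm7sf2 against C3H/HeJ, held in each alternative setting run.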

How the results depend on the processing

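Alternatives numbered 37, of which 24 left out 1 array. Over the members' 1800 values in the diet comparisons, 1572 kept direction and side of the threshold, 79 lost a call and 69 gained one. A further 64 changed sign without being called on the main scale or in the alternative. The other 16 changed sign and were called in at least 1 of the 2. Calls held in every setting run for Abcg5, Abcg8, Ebp, Insig1, Scap, Soat2 and Tm7sf2 in WSB/EiJ and for Scap in C3H/HeJ. The cause of the changes below was not tested, except that fewer arrays or genes enter some fits. For differences of diet effects and of control levels, the share of all genes under an alternative is not given here.

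With spike-in scaling the members' median was 0.02 in A/J, 0.08 in C3H/HeJ and -0.03 in WSB/EiJ, and Abca1 in C3H/HeJ was at 0.01. In WSB/EiJ, Acat2 was then at 0.09, Dhcr7 at 0.32, Insig2 at 0.31, Lss at 0.01, Nr1h3 at 0.58, Nsdhl at 0.01, Pmvk at 0.12, Scarb1 at 0.71 and Srebf2 at 0.43. Members higher numbered 2, 1 and 8 and lower 0, 2 and 6 in A/J, C3H/HeJ and WSB/EiJ, A/J calls over all genes 2885, and members whose diet effects differed 7 (WSB/EiJ against A/J) and 2 (against C3H/HeJ). Quantile normalization gave Insig2 at 0.10, Nr1h3 at 0.32 and a median of -0.58 in WSB/EiJ. It gave 2 members higher there (32.3% of all genes) and 3 lower in A/J (2.81%). Normexp correction gave Insig2 at 0.12, Nr1h3 at 0.30, Scarb1 at 0.28 and a median of -0.54 in WSB/EiJ. It gave 4 members higher there (32.7% of all genes) and 4 lower in A/J (3.87%), among 1465 genes called. Median centring left 0 members lower in A/J, where 1.34% of all genes were lower, and 3 in C3H/HeJ (9.11%). It left 3 differences between WSB/EiJ and C3H/HeJ. With the mean of a gene's probes Srebf2 was at 0.13 and 2 members were higher in WSB/EiJ (24.6% of all genes), and 2 were lower in A/J (2.39%).

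With no filter on dim probes 0 members were lower in A/J (285 genes called against 864) and 3 in C3H/HeJ (7.76% of all genes lower). On the control diet 1 member then differed between C3H/HeJ and A/J and 5 between WSB/EiJ and C3H/HeJ. With probes above background on all arrays 4 members were lower in A/J, as were 4.78% of all genes. Slide as a block gave 4 lower members in A/J (2064 genes called, 5.27% of all genes lower) and 10 in C3H/HeJ (22.6% lower). All 6 groups in 1 fit gave 4 (1622 genes called, 4.71% lower) and 10 (30.8% lower). The replicate block gave 0 lower members in A/J (53 genes called), 3181 genes in C3H/HeJ against 5097, and 5 members between WSB/EiJ and C3H/HeJ controls. Within slides the members' median was -0.06 (slide 1) and -0.75 (slide 3) in C3H/HeJ and -0.82 and -1.31 in WSB/EiJ.

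Without both A/J arrays numbered 4, 8 members were lower and 2835 genes called. Without WSB/EiJ control 4 and C3H/HeJ deficient 4, chosen after seeing the data, 12 members were lower in C3H/HeJ, the WSB/EiJ median was -1.34, 11 diet effects differed between these strains and 13 members differed between their controls. Leaving out 1 array at a time gave, in A/J, 0 to 8 members lower, a median of -0.46 to -0.23 and 240 to 1774 genes called; in C3H/HeJ, 2 to 12, -0.53 to -0.24 and 2794 to 7100; and in WSB/EiJ, 21 to 25 lower, 1 to 1 higher, -1.34 to -0.93 and 11100 to 11882. Diet effects differed for 11 to 21 members (WSB/EiJ against A/J), 4 to 14 (against C3H/HeJ) and 0 to 0 (C3H/HeJ against A/J), and control levels for 6 to 10, 5 to 13 and 1 to 3.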
